A study of Mus musculus with 8 samples.

Results

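The genes described here encode respiratory complexes II, III and IV, the ATP synthase (complex V), cytochrome c and assembly factors of these complexes, measured in whole brains of db/db mice on 2 diets. They were taken by symbol, as every row of the count table that starts with Sdha to Sdhd, Uqcr, Uqcc, Cox and a digit, or Atp5, plus Cycs and Cyc1. This rule was set with earlier results of these data known, so the shares below describe the set and do not test it. The rule found 64 of 17983 symbols: 8 of complex II, 12 of complex III, 26 of complex IV, 17 of complex V and the cytochrome c gene Cycs. Of these, 46 encode subunits, 16 assembly factors and 1 (Cox7a2l) a factor that joins complexes III and IV. The mitochondrially encoded subunits were not analysed here.

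The ketogenic group is 4 brain libraries of male db/db mice fed a ketogenic diet, which is high in fat and very low in carbohydrate, and the control group is 4 brain libraries of male db/db mice on a normal diet. Feeding ran in both groups from 9 weeks of age to 6 months, when whole brains were taken. Every mouse carried the db/db genotype, a leptin receptor mutation that gives obesity and type 2 diabetes, so no lean mouse stands beside them. The labels number 4 libraries per group but do not say that each came from its own mouse, so p-values measure the spread between these libraries only.

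The respiratory chain passes electrons from nutrients to oxygen across the inner mitochondrial membrane and pumps protons as it does so. Complex II, which is also the citric acid cycle enzyme succinate dehydrogenase, hands electrons to ubiquinone without pumping, complex III passes them to cytochrome c, and complex IV reduces oxygen. The ATP synthase lets the protons flow back through a ring of c subunits, whose turning drives ATP synthesis in its head, and neurons depend heavily on this supply.

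Whole-gene counts summed to between 34450860 and 40233361 per library over all symbols, and the levels below are given per library as CPM, the count scaled to a common library size with TMM (trimmed mean of M values) factors. The 5 genes with a mean under 1 CPM rest on few counts. The 64 genes held 0.828%, 0.855%, 0.861% and 0.852% of all counts in ketogenic replicates 1 to 4, and 0.749%, 0.766%, 0.812% and 0.799% in control replicates 1 to 4. Neuron markers were abundant in all libraries (summed 7640 to 9127 CPM in ketogenic and 8242 to 9195 CPM in control brains) and 0 of 9 passed the test. Astrocyte markers summed to 1189 to 1254 CPM in ketogenic and 1244 to 1499 CPM in control brains, with 4 of 5 lower, and blood markers to 69.4 to 114 CPM in ketogenic and 15.3 to 52.4 CPM in control brains, with 4 of 5 higher. Choroid plexus markers spanned 1031 to 1332 CPM in ketogenic and 571 to 1109 CPM in control brains with 0 of 4 past the test, and 1 of 5 microglia, 0 of 5 oligodendrocyte and 0 of 4 endothelium markers were higher, with 0 lower. None of the markers of these lists was at 0 in all libraries, and their part in the differences below was not tested. Ketogenic replicate 3 stood apart on the first principal component, at 34.4 against 2.90 to 11.2 in the other ketogenic libraries. The control libraries ran from -22.7 to -5.94 on it, with control replicate 1 the furthest out. Ketogenic replicate 4 had the lowest value on the second component, at -27.8. Pituitary markers (Prl, Gh and Pomc) summed to 0.346 to 13.3 CPM in ketogenic and 0.504 to 1.27 CPM in control brains, with the highest sum in ketogenic replicate 4. Gh was at 5.21 CPM there, at 0.416 CPM in ketogenic replicate 2 and at 0 in the other libraries. For these reasons results are also given without ketogenic replicates 3 and 4 together. In bulk tissue, fewer cells of a type and less RNA per cell cannot be told apart.

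Transcription of many of these nuclear genes is known to be driven by the factors NRF1 and GABPA, which bind near their start sites, so the windows of one gene that was higher and one that was lower in ketogenic brains are shown. Both are the 250 bases before the start that RefSeq (GRCm38.p6) gives, on the minus strand, 5′ to 3′. Capitals mark matches to the NRF1 core GCATGCGC or to the ETS motif of GABPA, CCGGAAG, on either strand. The Atp5l window lies at chr9:44920743-44920992 and the Cycs window at chr6:50566570-50566819.
Atp5l: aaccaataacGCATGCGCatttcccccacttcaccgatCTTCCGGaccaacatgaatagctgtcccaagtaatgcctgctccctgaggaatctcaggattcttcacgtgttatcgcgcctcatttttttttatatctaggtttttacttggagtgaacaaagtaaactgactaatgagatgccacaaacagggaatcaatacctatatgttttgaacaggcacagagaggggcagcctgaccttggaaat
Cycs: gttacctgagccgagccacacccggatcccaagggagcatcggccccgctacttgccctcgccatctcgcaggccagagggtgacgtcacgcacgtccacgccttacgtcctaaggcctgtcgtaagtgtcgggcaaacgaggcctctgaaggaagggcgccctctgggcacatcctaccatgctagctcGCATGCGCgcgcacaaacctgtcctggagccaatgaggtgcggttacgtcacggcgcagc
The Atp5l window holds the NRF1 core 240 bases before the start and, on the other strand, the ETS motif 212 bases before it, and the Cycs window holds the NRF1 core 60 bases before the start. Windows of 300 bases (250 before and 50 after the start) were at hand for 51 of the 64 genes and for 11800 of the 14895 tested genes. The NRF1 core was in 8 of the 51 (15.7%) and in 5.47% of the tested genes' windows, the ETS motif in 21 (41.2%) and in 17.7%, and the SP1 motif GGGCGG in 27 (52.9%) and in 66.5%, counting either strand and any overlap between motifs. The 8 genes with the NRF1 core were Sdhb, Uqcrc1, Uqcr11, Cycs, Cox6a1, Atp5g2, Atp5k and Atp5l. Of these, 4 were higher in ketogenic brains, 1 was lower and 3 did not pass. Of the 64 genes 18.8% were higher and 3.12% lower, and of all tested genes 3.3% and 3.22%. Windows were at hand for 9 of the 12 higher genes, and 4 of those 9 held the core. The other lower gene, Atp5pb, had a window without it. A link between the core and the calls was not tested. A match describes the letters of a window and is not a measured binding site.

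Ketogenic brains had small increases in a minority of these transcripts, among them the 3 c ring genes and 3 membrane subunit genes of the ATP synthase. Across the 14895 tested genes (edgeR, quasi-likelihood F test, p adjusted by the Benjamini-Hochberg method over all of them, threshold 0.05), 12 of the 64 genes (18.8%) were higher, 2 (3.12%) were lower and 50 did not pass. The background was 6.52% of tested genes past the threshold, 3.3% higher and 3.22% lower. The 12 increases ran from 1.17-fold to 1.37-fold. The log2 change was above 0 in 50 of the 64 genes (78.1%) and in 49.3% of all tested genes, and its median was 0.14 over the 64 genes and -0.0029 over all tested genes. All 4 ketogenic values lay above all 4 control values in 19 of the 64 genes (29.7%, against 7.22% of tested genes) and below them in 1 (1.56%, against 6.51%). A further 8 genes had an adjusted p between the threshold and 0.1, and 33 of the 64 had an unadjusted p under 0.05. Both counts mix directions. Cox20, among the 8, had a negative change, as had Uqcrb, Cox20, Cycs, Atp5pb and Atp5md among the 33. The shares of all tested genes at these limits are not given here.

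**Figure D1:**
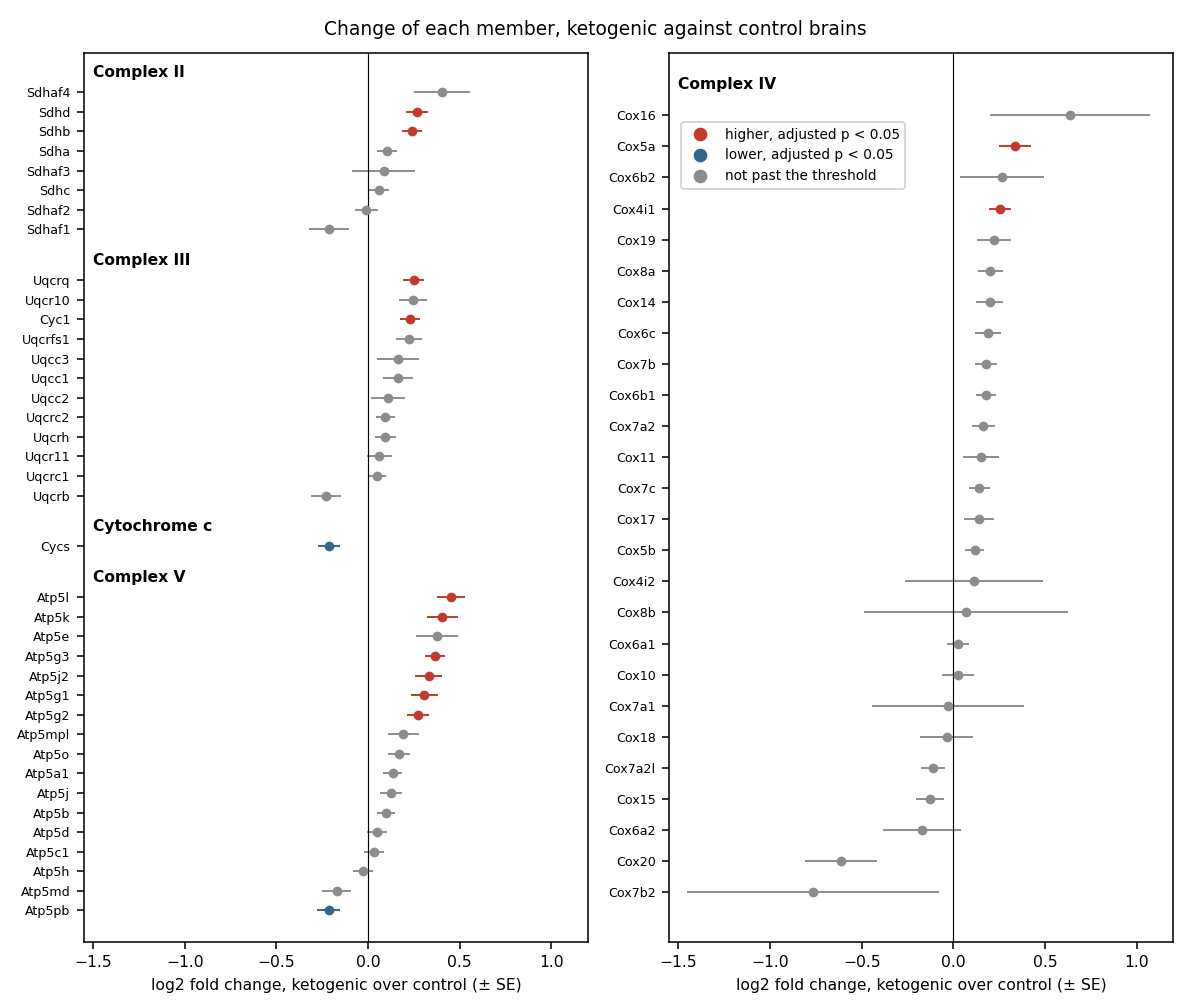
Log2 fold change of ketogenic over control brains (x axis) for each of the 64 genes, grouped by complex; points are edgeR estimates, bars ± SE, n = 4 libraries a group. Points of complexes II, III, IV and V lie mostly right of 0. The largest changes past the threshold are in the complex V genes Atp5l and Atp5k, while Cycs and Atp5pb are the 2 genes past it on the left.

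These calls depended on single libraries. Without ketogenic replicate 2, control replicate 1 or control replicate 2 the higher genes numbered 2 each time and the lower ones 0, while the share of all tested genes that was higher was 0.68%, 0.465% and 0.658% in those fits. Without ketogenic replicates 3 and 4 together they also numbered 2 and 0, with 0.256% of all tested genes higher. Without control replicate 4 they were 17 and 5, and 6.25% of all tested genes were higher and 6.41% lower. Atp5g3 and Atp5l kept their calls in each of these fits.

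Complex II oxidises succinate and joins the citric acid cycle to the chain. Of its 8 genes 2 subunits were higher in ketogenic brains, 0 were lower and 6 did not pass, with a median log2 change of 0.09. The shares over all tested genes were 3.3% higher and 3.22% lower. Sdhb encodes the iron-sulphur subunit that carries electrons from succinate to ubiquinone. It had 103, 111, 111 and 103 CPM in ketogenic replicates 1 to 4 and 90.1, 87.9, 89.4 and 94.1 CPM in control replicates 1 to 4. The groups did not overlap, and the log2 change was 0.24 ± 0.05 (SE, edgeR adjusted p = 0.019). Sdhd, 1 of the membrane anchors, had 69.2, 76.2, 76.3 and 72.7 CPM in ketogenic and 60.2, 57.1, 63.0 and 64.3 CPM in control replicates. Again every ketogenic library was above every control library, by 0.27 ± 0.06 in log2 (SE, edgeR adjusted p = 0.02). The other anchor, Sdhc, had 80.8, 86.9, 88.5 and 89.0 CPM in ketogenic and 77.9, 86.1, 84.4 and 82.6 CPM in control replicates. The groups overlapped and the difference of 0.06 ± 0.06 did not pass (edgeR adjusted p = 0.555).

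Sdha, the flavoprotein that oxidises succinate and the most abundant complex II transcript per length, had 516, 535, 502 and 523 CPM in ketogenic and 451, 468, 488 and 526 CPM in control replicates. Control replicate 4 reached the ketogenic range, and the log2 difference of 0.10 ± 0.05 did not pass (edgeR adjusted p = 0.259). The 4 assembly factors, Sdhaf1 to Sdhaf4, ran from -0.21 to 0.41 in log2 and none passed. No complex II gene was lower by edgeR, by DESeq2 (0) or by limma-voom (0), and 0 were at an unadjusted p under 0.05. Sdhaf4, which binds Sdha after its flavin is attached and is named here after its values were seen, had 5.67, 7.26, 7.46 and 6.49 CPM in ketogenic and 5.65, 5.20, 3.92 and 5.53 CPM in control replicates. Its groups did not overlap, though the lowest ketogenic and highest control values nearly met (edgeR adjusted p = 0.118). Both calls of complex II were lost without ketogenic replicate 2, control replicate 1 or control replicate 2, when 0 genes passed. With the trend of each library on gene length and GC content removed, Sdhd passed and Sdhb, at 0.17 in log2, did not (adjusted p = 0.113). Over the 8 fits with 1 library left out the adjusted p spanned 0.00861 to 0.0699 for Sdhb and 0.00913 to 0.0735 for Sdhd.

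Complex III takes electrons from ubiquinone to cytochrome c. Of its 12 genes 2 subunits were higher in ketogenic brains, 0 were lower and 10 did not pass, with a median log2 change of 0.14. Over all tested genes 3.3% were higher and 3.22% lower. Cyc1 encodes cytochrome c1, the haem subunit that hands electrons to cytochrome c. It had 109.7, 117, 121 and 112 CPM in ketogenic and 96.1, 91.8, 99.5 and 104 CPM in control replicates. All ketogenic libraries were above all control libraries, by 0.23 ± 0.06 in log2 (SE, edgeR adjusted p = 0.0287). Uqcrq, a small subunit, had 79.6, 88.1, 92.2 and 85.2 CPM in ketogenic and 70.8, 72.6, 72.8 and 73.9 CPM in control replicates. The control values spanned about 3 CPM and lay below every ketogenic value, a log2 difference of 0.25 ± 0.06 (SE; adjusted p in edgeR = 0.0217).

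The 3 complex III transcripts with the highest level per length did not pass. Uqcrh, the hinge protein, averaged 281 ± 15.4 FPKM (counts per length and per total) in ketogenic and 262 ± 8.29 FPKM in control brains (SD, n = 4 each), with a log2 change of 0.09 (edgeR adjusted p = 0.345). Uqcrc1, a core protein, averaged 156 ± 1.13 FPKM in ketogenic and 150.0 ± 6.34 FPKM in control brains, with a log2 change of 0.05 (edgeR adjusted p = 0.605). Uqcrb, a small ubiquinone-binding subunit, was the 1 complex III gene with a negative value, -0.23 ± 0.08 in log2 (edgeR adjusted p = 0.102). It had 75.0, 68.0, 68.3 and 64.6 CPM in ketogenic and 91.3, 74.9, 88.7 and 68.4 CPM in control replicates. Control replicates 1 and 3 were its highest libraries, and control replicates 2 and 4 lay within the ketogenic range. The Rieske protein gene Uqcrfs1 and the small subunit gene Uqcr10, both named after their values were seen, had log2 changes of 0.22 ± 0.07 and 0.25 ± 0.08 (edgeR adjusted p = 0.0627 and 0.0606). The assembly factors Uqcc1, Uqcc2 and Uqcc3 ran from 0.11 to 0.16 and none passed. No complex III gene was higher without ketogenic replicate 2, control replicate 1 or control replicate 2, 1 was without ketogenic replicate 3 or control replicate 3, 3 were without ketogenic replicate 1 and 6 were, with 1 lower, without control replicate 4. The adjusted p over these fits spanned 0.01 to 0.0917 for Cyc1 and 0.0134 to 0.0723 for Uqcrq. At an unadjusted p under 0.05, 1 complex III gene was lower, with 0 past the threshold in DESeq2 or limma-voom.

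Cytochrome c, the soluble carrier between complexes III and IV and a trigger of cell death when it leaves mitochondria, went the other way from its partner Cyc1. Cycs had 73.9, 73.1, 81.8 and 71.3 CPM in ketogenic and 82.9, 90.7, 89.2 and 84.4 CPM in control replicates. All 4 ketogenic libraries were below all 4 control libraries, though ketogenic replicate 3 lay within about 1 CPM of control replicate 1. The log2 change was -0.21 ± 0.06 (SE, edgeR adjusted p = 0.0445). The call was lost without any 1 of ketogenic replicates 1, 2 and 4 or control replicates 1, 2 and 3 (adjusted p 0.0277 to 0.121 over the fits with 1 library left out). With the length and GC trend removed the Cycs change was -0.10 and did not pass (adjusted p = 0.395), and that of Cyc1 was 0.17 (adjusted p = 0.127). Mouse Cycs has processed pseudogenes, 2 of them named after it in GENCODE M21, and how reads shared with them were counted is not given in the sources used here.

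Complex IV, cytochrome c oxidase, had 2 subunits higher in ketogenic brains, 0 lower and 24 genes not past the threshold. The share called higher was 3.3% over all tested genes and 7.25% over the 1490 shortest. The complex IV genes had a median length of 740.5 bases. Their median log2 change was 0.14, and 0.00 with the length and GC trend removed. Cox4i1 encodes the widely expressed isoform of subunit 4, which takes part in regulation of the enzyme by ATP, and was the most abundant of the 64 transcripts per length. It averaged 793 ± 36.5 FPKM in ketogenic and 663 ± 54.6 FPKM in control brains (SD, n = 4 each). By library it had 577, 613, 653 and 579 CPM in ketogenic and 461, 491, 553 and 525 CPM in control replicates. The groups did not overlap, with control replicate 3 nearest to the ketogenic range, and the log2 change was 0.25 ± 0.06 (SE, edgeR adjusted p = 0.029). Cox5a, a nuclear subunit that joins early in assembly, had 64.6, 82.1, 77.1 and 86.5 CPM in ketogenic and 54.6, 62.8, 58.4 and 69.4 CPM in control replicates. Ketogenic replicate 1 lay below control replicate 4, so the groups overlapped, and the log2 change was 0.34 ± 0.09 (SE, edgeR adjusted p = 0.0349).

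Neither of the next most abundant complex IV transcripts passed. Cox6a1, the liver-type isoform of subunit 6a, averaged 462 ± 19.3 FPKM in ketogenic and 452 ± 27.6 FPKM in control brains (edgeR adjusted p = 0.839). Cox6b1, the widely expressed isoform of subunit 6b that lies at the dimer interface, averaged 445 ± 26.0 FPKM in ketogenic and 392 ± 10.2 FPKM in control brains. Its 4 ketogenic CPM values of 192, 213, 222 and 209 were above the control values of 188, 178, 191 and 184 by a narrow margin, and the log2 change of 0.18 ± 0.05 did not pass (edgeR adjusted p = 0.0629). No complex IV gene was higher without ketogenic replicate 2, control replicate 1 or control replicate 2, 1 was without ketogenic replicate 4, and 3 were without ketogenic replicate 1 or control replicate 3. The adjusted p over the fits with 1 library left out spanned 0.0176 to 0.096 for Cox4i1 and 0.0111 to 0.126 for Cox5a. With the length and GC trend removed, Cox4i1 changed by 0.13 and did not pass (adjusted p = 0.312), and Cox5a by 0.44, which did (adjusted p = 0.0252). At an unadjusted p under 0.05, 1 complex IV gene was lower, and 1 was past the threshold in DESeq2 and 0 in limma-voom.

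Several complex IV subunits have a second gene, known for expression in heart, skeletal muscle, lung or testis. In these brains 1 isoform held nearly all of the level per length in each family. Cox4i1 held 99.8% of the summed FPKM of subunit 4 in both groups, Cox6a1 98.2 ± 0.346% of subunit 6a in ketogenic and 98.0 ± 0.502% in control brains, and Cox6b1 99.1 ± 0.101% of subunit 6b in ketogenic and 99.2 ± 0.126% in control brains (SD, n = 4 each). Cox7a2 held 98.4 ± 0.740% of subunit 7a in ketogenic and 98.2 ± 0.478% in control brains, Cox7b 99.4 ± 0.427% of subunit 7b in ketogenic and 98.9 ± 0.809% in control brains, and Cox8a 99.7% of subunit 8 in both groups. The share of the major isoform overlapped between the diets in all 6 families.

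Of the major isoforms other than Cox4i1, none passed. Cox7b had 94.7, 101, 93.3 and 88.2 CPM in ketogenic and 77.2, 86.9, 87.0 and 82.1 CPM in control replicates, without overlap (log2 change 0.18 ± 0.06, edgeR adjusted p = 0.0804). Cox8a had 208, 207, 229.6 and 203 CPM in ketogenic and 165, 178, 207 and 187 CPM in control replicates, and control replicate 3 lay within the ketogenic range (log2 change 0.20 ± 0.07, edgeR adjusted p = 0.0757). Cox7a2 had a log2 change of 0.16 ± 0.06 (edgeR adjusted p = 0.123), and its bounds overlap Tmem30a. The minor isoforms were low. Cox6a2, the heart and muscle type, had 4.74, 4.67, 7.70 and 5.26 CPM in ketogenic and 6.18, 7.73, 7.45 and 3.84 CPM in control replicates, and Cox6b2, the testis type, 2.28, 2.18, 2.16 and 2.62 CPM in ketogenic and 2.38, 1.84, 1.76 and 1.69 CPM in control replicates. The groups overlapped for both. Cox4i2, Cox7a1, Cox7b2 and Cox8b averaged under 1 CPM, with no change past the threshold. Skeletal and heart muscle markers summed to 21.7 to 29.6 CPM in ketogenic and 20.9 to 29.3 CPM in control brains.

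The 9 complex IV assembly factors, which make haem a (Cox10, Cox15), deliver copper (Cox11, Cox17, Cox19) or place the first subunits (Cox14, Cox16, Cox18, Cox20), ran from -0.61 to 0.64 in log2 and none passed. Cox20, a chaperone of the mitochondrially encoded subunit 2, had the most negative value among members with at least 1 CPM and is named here after its values were seen. It had 6.81, 6.07, 5.28 and 4.57 CPM in ketogenic and 12.6, 7.82, 8.46 and 5.94 CPM in control replicates. Control replicate 1 was far above the others and control replicate 4 lay within the ketogenic range, and the log2 change of -0.61 ± 0.20 did not pass (edgeR adjusted p = 0.0687). Its gene overlaps Hnrnpu by 1586 bases. Over all complexes, 0 of 16 assembly factors and 12 of 46 subunits were higher, with 0 and 1 lower and medians of 0.13 and 0.15. Of the 16 assembly factors, 3 were higher and 1 lower at an unadjusted p under 0.05, and 0 were higher and 1 lower by DESeq2, with 0 by limma-voom. The difference between these kinds of gene was not tested, and the assembly factors were less abundant, at group means of 0.161 to 46.5 FPKM.

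The ATP synthase held the largest share of the calls, with 6 of 17 genes higher in ketogenic brains, 1 lower and 10 not past the threshold. Over all tested genes 3.3% were higher and 3.22% lower. The median log2 change of complex V was 0.17. The 6 were the 3 genes for subunit c and 3 of the 5 genes for small membrane subunits. Subunit c forms the ring that protons turn, and 3 genes encode the same mature protein behind different import sequences. Atp5g3, which had the highest level of the 3, had 116, 127, 131 and 133 CPM in ketogenic and 99.8, 97.9, 95.6 and 100.3 CPM in control replicates. Every ketogenic value was well above the narrow control range, a log2 difference of 0.37 ± 0.05 (SE; adjusted p in edgeR = 0.00374). Atp5g1 had 57.5, 71.2, 73.1 and 66.4 CPM in ketogenic and 55.2, 50.5, 55.4 and 55.6 CPM in control replicates. Ketogenic replicate 1 was only just above the control libraries and the log2 change was 0.31 ± 0.07 (SE, edgeR adjusted p = 0.0261). Atp5g2 had 67.3, 72.4, 72.9 and 73.2 CPM in ketogenic and 54.4, 57.9, 62.5 and 61.8 CPM in control replicates, again without overlap, a log2 difference of 0.27 ± 0.06 (SE; adjusted p in edgeR = 0.0208).

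The proportions among the 3 subunit c genes overlapped between the diets. Of their summed FPKM, Atp5g3 held 43.2 ± 0.659% in ketogenic and 41.8 ± 1.41% in control brains, Atp5g2 35.4 ± 0.775% in ketogenic and 36.5 ± 1.62% in control brains, and Atp5g1 21.5 ± 1.17% in ketogenic and 21.7 ± 0.748% in control brains (SD, n = 4 each).

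Subunits e, f and g sit in the membrane beside the ring, and e and g hold ATP synthase dimers together at the crista edges. Atp5l (subunit g, chr9:44913248-44920742, GRCm38.p6), whose start window is printed above, had 81.6, 93.4, 91.6 and 81.4 CPM in ketogenic and 56.3, 59.4, 67.6 and 70.7 CPM in control replicates. It had the largest change past the threshold among the 64 genes, 0.45 ± 0.08 in log2 or 1.37-fold, without overlap (SE, edgeR adjusted p = 0.0069). Atp5k (subunit e) had 40.7, 50.2, 55.5 and 44.6 CPM in ketogenic and 34.0, 35.4, 36.6 and 38.1 CPM in control replicates. Ketogenic replicate 3 was the highest and ketogenic replicate 1 the nearest to the control range, and the log2 change was 0.41 ± 0.09 (SE, edgeR adjusted p = 0.0173). Atp5j2 (subunit f) had 79.3, 85.2, 97.7 and 87.6 CPM in ketogenic and 65.7, 66.9, 67.0 and 78.3 CPM in control replicates. Control replicate 4 came within about 1 CPM of ketogenic replicate 1, and the log2 change was 0.33 ± 0.07 (SE, edgeR adjusted p = 0.019). Atp5md, the small membrane subunit DAPIT and among the 3 most abundant complex V transcripts per length, had 86.9, 85.0, 95.5 and 86.2 CPM in ketogenic and 107, 95.4, 112 and 84.0 CPM in control replicates. Control replicates 1 and 3 were above every ketogenic library, control replicate 2 lay just under the highest of them and control replicate 4 below them all (log2 change -0.17 ± 0.08, edgeR adjusted p = 0.186).

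**Figure D2:**
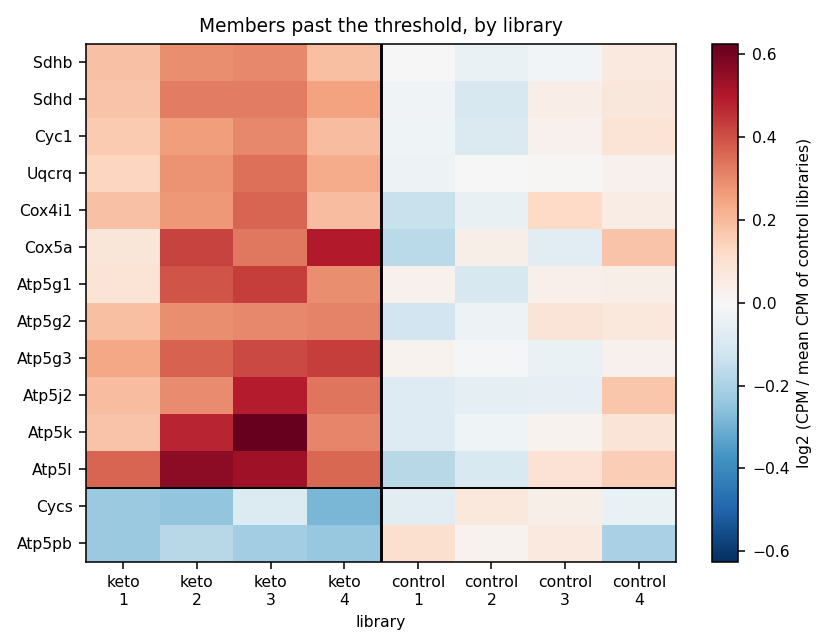
CPM of the 14 genes past the threshold in each library, as log2 of the ratio to the mean of the control libraries (colour scale), ketogenic replicates on the left and control replicates on the right. Ketogenic replicate 1 is the lowest ketogenic library for every higher gene but Atp5l, with Cox5a and Atp5g1 as plain examples. Control replicate 4 resembles the ketogenic columns for Atp5pb.

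The catalytic head and the stalks of the enzyme gave few calls. Atp5b, the catalytic beta subunit and the most abundant complex V transcript, averaged 689.6 ± 13.7 FPKM in ketogenic and 642 ± 31.0 FPKM in control brains (log2 change 0.10 ± 0.05, edgeR adjusted p = 0.228). Atp5a1, the alpha subunit, averaged 449 ± 4.15 FPKM in ketogenic and 408 ± 24.9 FPKM in control brains. Its CPM values of 1111, 1069.8, 1122 and 1061 in ketogenic replicates were all above the 945, 944, 1045 and 1041 of control replicates, yet the log2 change of 0.13 ± 0.05 did not pass (edgeR adjusted p = 0.122). None of the 5 head and central stalk genes passed in edgeR (median 0.10), while 2 had an unadjusted p under 0.05, 1 passed in DESeq2 and 0 did in limma-voom. The largest value among them was that of Atp5e, the epsilon subunit of the central stalk, at 0.37 ± 0.11 in log2 (edgeR adjusted p = 0.0605, named after its values were seen). Of the 4 peripheral stalk genes, which hold the head still against the turning ring, Atp5pb (subunit b) was lower and 3 did not pass (median 0.05). Atp5pb had 245, 256, 248 and 245 CPM in ketogenic and 309, 293, 301 and 250.1 CPM in control replicates. The ketogenic libraries were close together, control replicates 1 to 3 were far above them, and control replicate 4 lay among them. The log2 change was -0.21 ± 0.06 (SE, edgeR adjusted p = 0.0489), and it passed in only 1 of 8 fits with a library left out, without control replicate 4 (adjusted p 0.00472 to 0.158).

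The medians of the c ring and of the membrane subunits were 0.31 and 0.33, against 0.10 in the head. With the length and GC trend removed these medians were 0.22, 0.15 and 0.08, and the difference between these modules was not tested. Atp5k then changed by 0.18 and Atp5j2 by 0.15 in log2, Atp5g1 by 0.22 and Atp5g2 by 0.16, and these 4 calls were lost (adjusted p = 0.272, 0.319, 0.095 and 0.16). The Atp5pb change was -0.21 and no longer passed (adjusted p = 0.0816). Atp5md, a membrane subunit gene not past the threshold before, changed by -0.33 and passed as lower (adjusted p in edgeR = 0.0356). Of the 6 increases of complex V, 2 (Atp5g3 and Atp5l) remained without ketogenic replicate 2, control replicate 1 or control replicate 2, and 4 without control replicate 3. Over the fits with 1 library left out, the adjusted p spanned 0.00294 to 0.0223 for Atp5g3, 0.00229 to 0.0356 for Atp5l, 0.0131 to 0.0877 for Atp5g1, 0.0106 to 0.0756 for Atp5g2, 0.00999 to 0.0676 for Atp5k and 0.00406 to 0.0736 for Atp5j2.

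**Figure D3:**
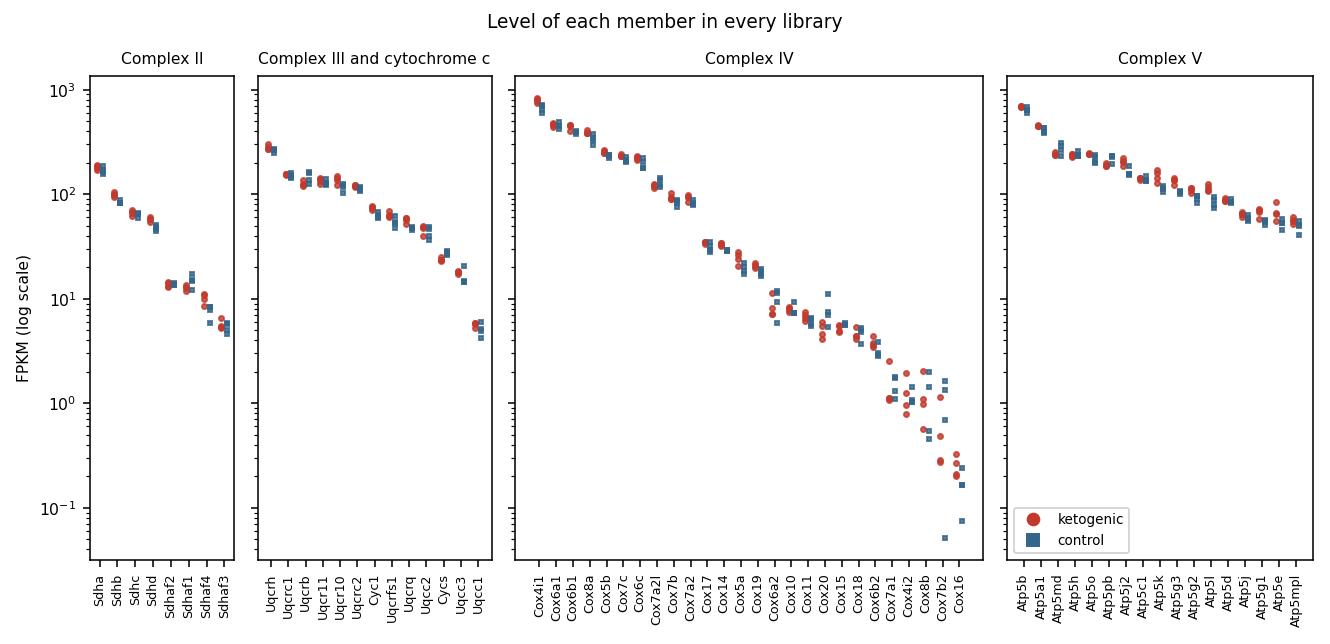
FPKM of each of the 64 genes in every library (log axis), by complex, ordered by mean level, circles for ketogenic and squares for control libraries. Complex V genes span about 1 order of magnitude while complex IV genes span over 3, where several muscle, lung and testis isoforms and Cox16 lie near or under 1 FPKM.

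Levels per length differed widely between genes of 1 complex. Control means ran from 5.34 to 169 FPKM in complex II, from 5.08 to 262 FPKM in complex III, from 0.161 to 663 FPKM in complex IV and from 49.0 to 642 FPKM in complex V. Cycs averaged 23.8 ± 0.971 FPKM in ketogenic and 27.5 ± 1.28 FPKM in control brains, below Cyc1 at 74.0 ± 2.78 FPKM in ketogenic and 62.9 ± 3.55 FPKM in control brains. The summed FPKM of complex V was 3134, 3255, 3351 and 3274 in ketogenic replicates 1 to 4 and 2878, 2933, 3114 and 3041 in control replicates 1 to 4. Each ketogenic sum was above each control sum, with ketogenic replicate 1 and control replicate 3 less than 1% apart. Summed FPKM of complex IV was 3146, 3314, 3381 and 3234 in ketogenic and 2809.7, 2864, 3139 and 2899.7 in control replicates, where control replicate 3 again came close to ketogenic replicate 1.

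The shift was visible in every ketogenic library as well as in single genes. The median over the 64 genes of log2 CPM, relative to the mean of the control libraries, was 0.10, 0.15, 0.18 and 0.13 in ketogenic replicates 1 to 4 and -0.02, -0.04, 0.04 and 0.03 in control replicates 1 to 4. For complex V it was 0.09, 0.15, 0.23 and 0.14 in ketogenic and -0.07, -0.03, 0.07 and 0.06 in control replicates. Complexes II, III and IV likewise had each ketogenic median above each control median. All tested genes lay between 0.00 and 0.01 in both groups, which the TMM scaling largely fixes in advance. Among the shortest tested genes, where most of the 64 lie, the median log2 change was 0.08.

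**Figure D4:**
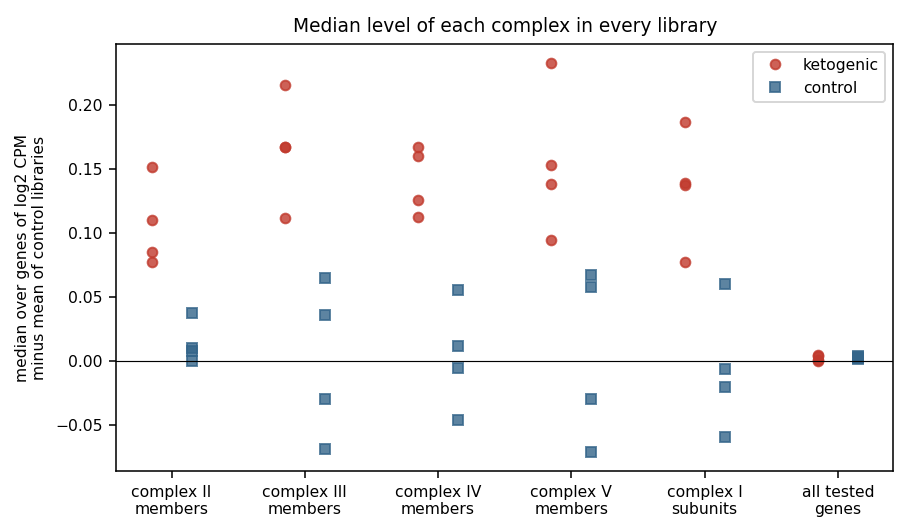
Median over the genes of each complex of log2 CPM minus the mean of the control libraries (y axis), 1 point per library, circles for ketogenic and squares for control. For complexes II to V and for the genes with complex I symbols the ketogenic points lie above the control points. Medians over all tested genes sit at 0.00 to 0.01 in both groups, which the TMM scaling largely fixes in advance.

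The transcripts described here are short, and short genes as a whole were slightly higher in ketogenic brains. The median length that the deposited FPKM values imply was 801.5 bases for the 64 genes and 3312 bases for all symbols. Of the 64 genes 46 lay among the 1490 shortest tested genes (206 to 1416 bases), where the median log2 change of all genes was 0.08, with 7.25% higher and 1.54% lower. The 46 had a median of 0.16 and 9 of them were higher. Among the 1490 longest genes the median was -0.05. With the smooth trend of each library on gene length and GC content removed, 5 of the 64 genes were higher (Sdhd, Uqcrq, Cox5a, Atp5g3 and Atp5l), 1 was lower (Atp5md), and the median was 0.07, against 0.01 over all tested genes, with 1.04% of them higher and 1.03% lower. By complex the medians were then 0.09 for complex II, 0.08 for complex III, 0.00 for complex IV and 0.11 for complex V.

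**Figure D5:**
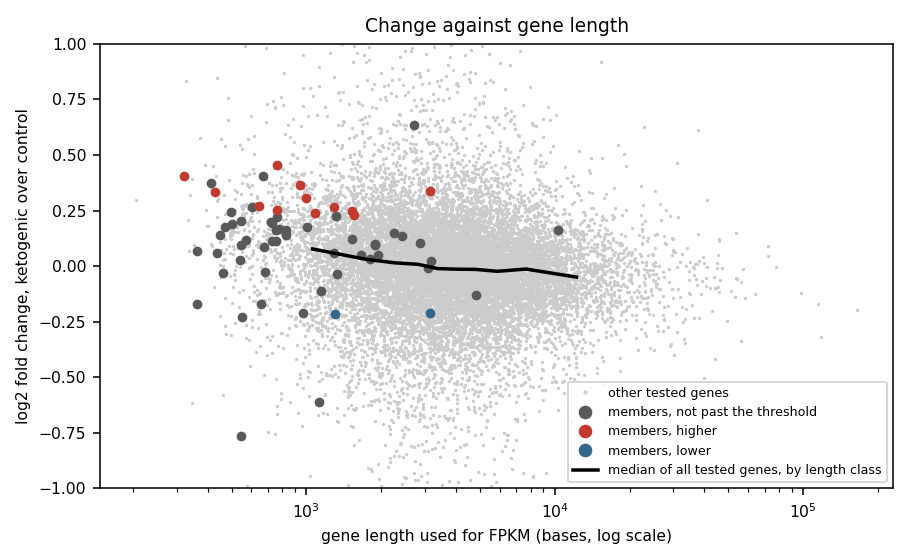
Log2 fold change of ketogenic over control brains (y axis, shown from -1 to 1) against the gene length behind the FPKM values (log axis), for the 64 genes in dark grey, red (higher) and blue (lower) and for other tested genes in light grey. The black line, the median of all tested genes in 10 classes of length, runs from 0.08 in the shortest class to -0.05 in the longest, and most of the 64 genes lie at its short end and above it.

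Other genes of the pathway were read from the same fit. Complex I feeds electrons from NADH into the chain. Of 38 genes with a complex I subunit symbol (Nduf), Ndufa4 among them, 7 were higher and 0 lower (1 at an unadjusted p under 0.05). The shares of all tested genes were 3.3% and 3.22%. The 38 had a median log2 change of 0.13, and of 0.04 with the length and GC trend removed. Ndufv1, which binds NADH, had 131 ± 2.31 CPM in ketogenic and 107 ± 8.88 CPM in control brains, a log2 change of 0.29 ± 0.06 (edgeR adjusted p = 0.0171). Ndufa7, Ndufb8, Ndufs3, Ndufb9 and Ndufa2 also passed, with log2 changes of 0.33, 0.26, 0.31, 0.24 and 0.36. Of 22 tested assembly factors outside the 64 genes, 0 were higher and 1 was lower, Lyrm7, which helps insert the Rieske protein into complex III. It had 28.9 ± 1.94 CPM in ketogenic and 35.4 ± 1.40 CPM in control brains, a log2 difference of -0.30 ± 0.07 (SE; adjusted p in edgeR = 0.0271). The gene of the ATP synthase inhibitor, Atpif1, had a log2 change of -0.12 ± 0.07 and did not pass (edgeR adjusted p = 0.336).

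None of 11 transcription factors and coactivators of mitochondrial gene expression was higher in edgeR, and 1 (Esrra) had a positive change at an unadjusted p under 0.05. Ppargc1a, the coactivator that raises mitochondrial gene expression, was lower, at 63.6 ± 3.56 CPM in ketogenic and 75.7 ± 5.73 CPM in control brains (log2 change -0.25 ± 0.06, SE, edgeR adjusted p = 0.0349). Nrf1 and Gabpa, whose motifs were counted above, had log2 changes of -0.03 ± 0.10 and -0.10 ± 0.07 and did not pass (edgeR adjusted p = 0.893 and 0.426). The bounds of Gabpa overlap those of Atp5j by 967 bases. The median over the 11 was -0.10, and -0.06 with the length and GC trend removed. In 5 of the 11 all ketogenic values lay below all control values, against 6.51% of tested genes.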

How the data were processed

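Messenger RNA of whole brain was sequenced from 4 ketogenic and 4 control libraries of db/db mice, prepared with a SMARTer kit per the labels' protocols. The authors deposited raw counts per gene symbol and FPKM values; the deposited FPKM equal the count divided by 1 length per gene and the column total. The submitters' processing notes name GRCm38 and mm10; no source used here states the aligner, the counting program or its use of strand. Library totals were 34450860 to 40233361 counts, and count precision covers counting error only.

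Counts were tested with edgeR 4.0.16 (R 4.3.3): TMM factors, its filter on low counts (14895 symbols kept, 3088 left out, all 64 members kept), a diet term, the quasi-likelihood F test and Benjamini-Hochberg adjustment over all tested genes, threshold 0.05. SE is the log2 change divided by the square root of F. Levels between genes were compared as FPKM only. The members, lists and rules were chosen with earlier results of these data known. Named were all genes past the threshold, the complex II subunits, Cycs, Cyc1, the 3 highest by FPKM in complexes III to V, all isoform families and, outside the 64 genes, up to 8 called pathway genes by smallest p; others are marked where named. Alternatives were other scaling factors, other filters, limma-voom (limma 3.58.1), the Wald test of DESeq2 1.42.0, a replicate block, each library left out, ketogenic replicates 3 and 4 left out together, and removal of a loess trend (span 0.3) on length and GC content. Coordinates and promoter windows are RefSeq, GRCm38.p6. The bounds of 13 members overlap another protein-coding gene and 9 overlap an opposite-strand noncoding gene (Atp5l, Atp5pb and Cox5a among the called genes), and 5 (Cycs, Atp5l, Atp5k, Uqcrh and Atp5c1) have pseudogenes named after them, so that shared reads make their counts uncertain.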

Additional observations from a re-analysis of the deposited data

Results flagged for a closer look

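Among 66 groups of 4 libraries checked (the CPM of each of the 33 named genes in each diet group), 5 held a library whose gap to its nearest neighbour was a larger part of the group's range than Dixon's 95% critical value allows. Chance alone flags about 1 in 20 groups. Atp5g2 was lowest in ketogenic replicate 1, at 67.3 CPM against 72.4 to 73.2 CPM in the other ketogenic libraries. Cox7a1, the heart and muscle isoform of subunit 7a, was highest in ketogenic replicate 4, at 1.15 CPM against 0.492 to 0.533 CPM in the others. Atp5g1 was lowest in control replicate 2, at 50.5 CPM against 55.2 to 55.6 CPM, and Cox4i2 was highest there, at 1.03 CPM against 0.756 to 0.768 CPM. Atp5j2 was highest in control replicate 4, at 78.3 CPM against 65.7 to 67.0 CPM in the other control libraries.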

How the results depend on the processing

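Over 18 alternatives, the 14 called genes kept their calls in 181 of 252 cases and changed direction in 0. The counts of 12 higher and 2 lower genes became 5 and 1 with the length and GC trend removed. They became 2 and 0 without ketogenic replicates 3 and 4 together, and 12 and 1 with limma-voom. The 1 lower gene with the trend removed was Atp5md, not past the threshold in the main fit, while Cycs and Atp5pb no longer passed. By complex, the trend left 1 higher in complex II, 1 in III, 1 in IV and 2 in V. Without ketogenic replicates 3 and 4 the higher genes were 0, 0, 0 and 2 in complexes II to V, and 0 were lower in complex V, as with limma-voom (0). The DESeq2 Wald test gave 18 higher and 3 lower over the 64 genes. These included 4 higher in complex III, and 5 higher and 1 lower in complex IV. That test called 6.05% of all tested genes higher and 5.86% lower, against 3.3% and 3.22% in edgeR. Leaving out 1 library at a time, the 64 genes gave 2 to 17 higher and 0 to 5 lower, complex II 0 to 2 higher, complex III 0 to 6 higher and 0 to 1 lower, complex IV 0 to 3 higher and 0 to 1 lower, and complex V 2 to 7 higher and 0 to 2 lower. The cause of these changes was not tested. The other scaling factors and filters gave 12 or 13 higher and 2 lower.

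With a replicate block 19 genes were higher and 4 lower: 4 higher and 1 lower in complex III, and 5 higher and 1 lower in complex IV. Under the block 5.01% of all tested genes were higher and 5.25% lower, against 3.3% and 3.22% without it. The labels' numbers were not shown to pair the libraries, since same-numbered libraries' deviations correlated at 0.02 to 0.08 and 2 of 4 ketogenic libraries correlated best with the control library of their own number. Depth limits the 5 members under 1 CPM, whose SE values are the largest.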
